A study of Mus musculus with 6 samples.

Results

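The Wnt pathway genes described here are 52 of the 18192 genes on an Affymetrix mouse expression array. They are the 19 genes whose annotated symbol is Wnt with a number, the 10 whose symbol is Fzd with a number, and 23 named receptors, inhibitors and signalling components (Lrp5, Lrp6, Ror1, Ror2, Ryk, Porcn, and the Dkk, Sfrp, Dvl, Nkd, Axin, Apc, Gsk3 and Tcf7l genes given below). Each gene was represented by 1 probe set, the one with the highest mean over the 6 arrays among those annotated to that gene alone. The group difference did not enter that choice of probe set. The genes and the further lists were chosen with earlier results of these data known. The antisense gene Fzd10os was not counted as a Frizzled gene. The 2 groups, with 3 arrays each, were EGFP-positive cells and EGFP-negative cells. Both were lineage-negative (Lin-) haematopoietic progenitors of C57BL/6J background with rtTA, a transactivator that answers to doxycycline, at Rosa26. The EGFP-positive cells had received the lentiviral vector pRRL.TET.EVI1.IRES.EGFP, which makes the transcription factor EVI1 and fluorescent EGFP under doxycycline. The EGFP-negative cells are called untransduced in their labels, whereas the design text describes a sort of negative or low cells from the transduced culture. The medium held 50 ng/ml each of stem cell factor, Flt3 ligand and interleukin-11 with 20 ng/ml interleukin-3, and 1 µg/ml doxycycline was given for 20 hours before the sort. EVI1 is driven here from a vector and not from its own locus, and the labels do not say whether replicates are separate cultures or animals. The p-values therefore describe the spread among these 6 samples, which may be technical.

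Wnt proteins are secreted lipid-modified ligands. They need the acyltransferase PORCN to receive their lipid and the carrier WLS to leave the cell, and they bind Frizzled receptors together with the co-receptors LRP5 and LRP6, or the alternative receptors ROR1, ROR2 and RYK. In the canonical branch, Dishevelled proteins then restrain a destruction complex of AXIN, APC and the GSK3 kinases, and the beta-catenin that accumulates acts with TCF and LEF factors on genes such as Axin2. In the marrow the pathway is known for its part in stem cell self-renewal and in early lymphoid development.

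Values are log2 expression values, so a difference of 1 between groups is a doubling. Differences are EGFP-positive minus EGFP-negative, and a gene passed when its limma p, adjusted by Benjamini-Hochberg over all 18192 genes, was under 0.05. Of the 52 genes, 6 were higher (Porcn, Fzd4, Fzd5, Ryk, Ror1 and Axin2) and 3 lower (Fzd1, Fzd6 and Wnt2b) in EGFP-positive cells, and 43 did not pass. These are 11.5% and 5.77% of the 52, beside 16.0% higher and 17.2% lower among all genes tested, or 33.2% in either direction against 17.3% here. The 16.0% and 17.2% also stand beside the counts of each role and list below. The median difference was 0.09 over the 52 genes and 0.02 over all genes. The values of the groups did not overlap for 20 of the 52 genes, beside 48.2% of all genes. Porcn, Fzd4, Fzd5, Ryk, Axin2 and Fzd1 passed under each of 14 alternative settings, and Ror1, Fzd6 and Wnt2b were each lost in 7 or more of them.

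**Figure D1:**
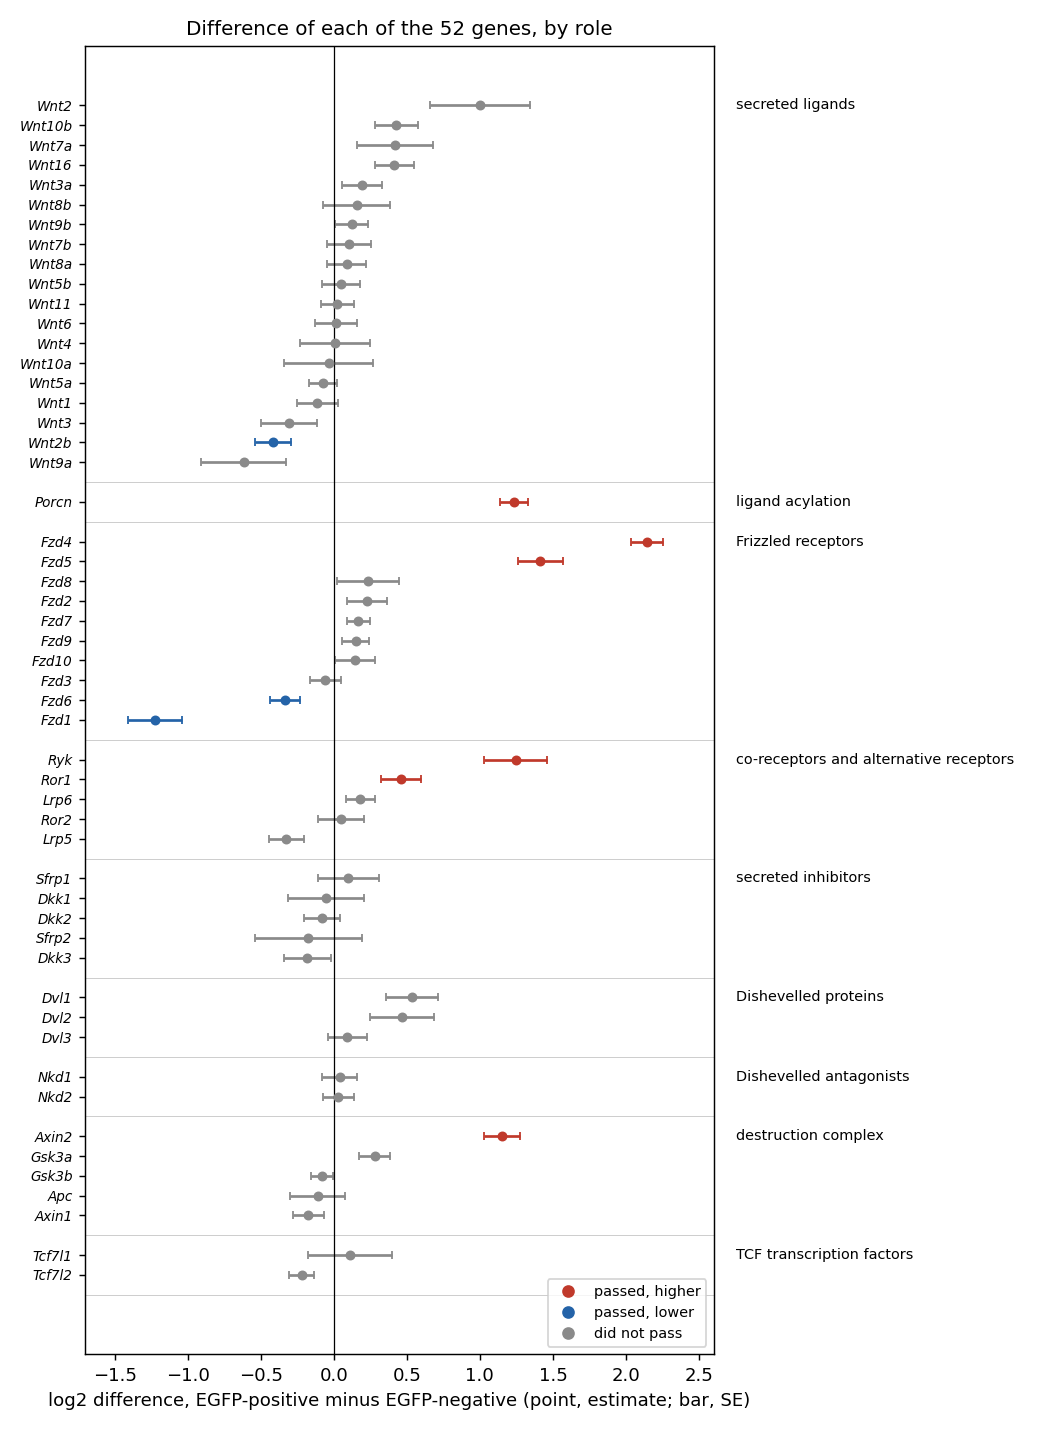
Log2 difference of each of the 52 genes (horizontal axis, EGFP-positive minus EGFP-negative; point, limma estimate; bar, SE), grouped by role from top to bottom. The largest rise was that of Fzd4 (2.14) and the largest fall that of Fzd1 (-1.22), and the secreted inhibitors lie within 0.18 of 0.

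Arrays agreed closely within groups (Pearson's r across probe sets 0.989 for EGFP-positive and 0.995 for EGFP-negative pairs) and less between groups (0.968 to 0.969). All 8 progenitor markers listed for the label, among them Ptprc, Kit and Cd34, lay above background in both groups, with 2 higher and 4 lower in EGFP-positive cells. Of other marker lists, 6 of 6 measured mature myeloid genes fell, beside 17.2% of all genes. Of 6 measured red cell and platelet genes 3 rose, beside 16.0% of all genes. The excess of 3' over 5' signal, a sign of RNA quality or amplification, was 1.00 ± 0.03 in EGFP-positive and 0.80 ± 0.05 in EGFP-negative arrays for Actb (log2, SD, n = 3 each), so it moved with the groups. Its part in the results below, and that of the cell mix, was not tested. Each array measured a whole sorted fraction, in which fewer cells of a type and less RNA per cell cannot be told apart.

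The array carries 27 bacterial poly-A control probe sets, to which mouse RNA should not bind. They read 1.13 to 3.61, and 3.61 is used as a ceiling of background. Of the 52 genes, 28 exceeded it on all 6 arrays, beside 12167 of all 18192 genes. Among the 28 were the ligand genes Wnt4, Wnt6, Wnt7a, Wnt9a, Wnt9b and Wnt11, the acyltransferase gene Porcn, and the receptor genes Fzd1, Fzd3, Fzd4, Fzd5, Fzd6, Fzd7, Fzd9, Lrp5, Lrp6 and Ryk. All of the Dishevelled, Nkd and destruction complex genes measured and Tcf7l2 were also among the 28. A further 4 (Wnt7b, Wnt10b, Fzd2 and Ror1) exceeded it on all EGFP-positive arrays but not all EGFP-negative ones. Tcf7l1 did the reverse, with EGFP-positive replicate 3 marginally under it. Wnt2, Wnt3a, Wnt5b, Dkk3 and Sfrp1 exceeded it on some arrays only, and 14 exceeded it on none, beside 4246 of all 18192 genes. Those 14 were Wnt1, Wnt2b, Wnt3, Wnt5a, Wnt8a, Wnt8b, Wnt10a, Wnt16, Fzd8, Fzd10, Ror2, Dkk1, Dkk2 and Sfrp2, for which no fold is given.

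**Figure D2:**
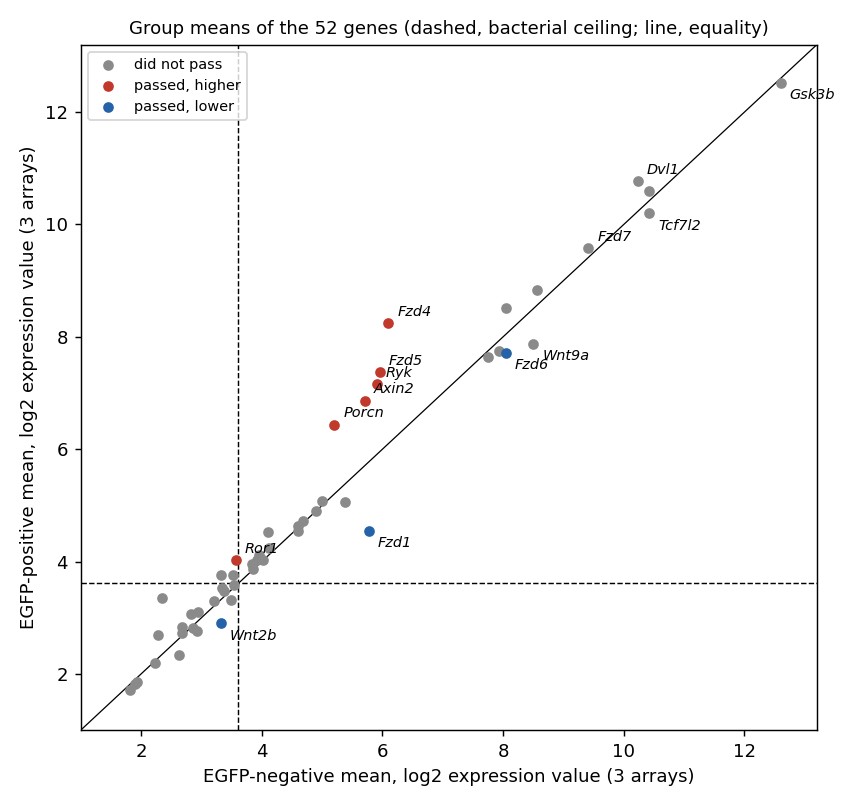
Mean log2 expression value of each of the 52 genes in EGFP-positive cells (vertical axis) against EGFP-negative cells (horizontal axis), 3 arrays each, with the bacterial ceiling of 3.61 as dashed lines and equality as the solid line. Of the genes that passed, 5 stand well above the line (Fzd4, Fzd5, Ryk, Axin2 and Porcn), Fzd1 stands well below it, and Wnt2b lies under the ceiling in both groups.

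At the probe sets used, most ligand readings were near background, and those of Wnt9a were the highest. Wnt6 averaged 4.91 in EGFP-positive and 4.89 in EGFP-negative cells, above the ceiling on every array. Apart from Wnt9a, the 18 other ligand genes read 1.56 to 5.15 on every array. Wnt9a, a ligand known from zebrafish to act on emerging blood stem cells, read 7.38, 7.73 and 8.54 on EGFP-positive arrays, against 8.59, 8.47 and 8.43 on EGFP-negative arrays. EGFP-positive replicates 1 and 2 were below all EGFP-negative arrays, and replicate 3 lay among them. The difference of -0.62 (SE 0.29) did not pass (adjusted p = 0.16, limma). Without EGFP-positive replicate 3 it was -0.95 with an adjusted p of 0.0060. The further probe set of Wnt9a lay under the ceiling on every array, with means of 2.93 in EGFP-positive and 2.64 in EGFP-negative cells. Its difference was 0.29, in the other direction (adjusted p = 0.27 over all probe sets, limma). Over the alternative settings the Wnt9a difference was -0.95 to -0.17.

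Of the 19 ligand genes, limma called 0 higher and 1 lower, and 4 of the 19 had an unadjusted p under 0.05, beside 42.6% of all genes. Under some alternatives Wnt10b, Wnt16 and Wnt2 passed as higher: Wnt10b and Wnt16 without EGFP-negative replicate 1, Wnt10b with the filter at the ceiling, Wnt16 with arrays shifted to the same median, and Wnt2 with eBayes trend and robust options. Wnt2b, the ligand that passed, averaged 2.90 in EGFP-positive and 3.32 in EGFP-negative cells, all readings being under the ceiling, and its call was lost without any 1 of the 6 arrays. Wnt2 read 2.89, 3.20 and 3.98 on EGFP-positive arrays, against 2.85, 2.27 and 1.95 on EGFP-negative arrays (adjusted p = 0.069). The groups did not overlap, but 1 reading alone, that of EGFP-positive replicate 3, lay above background. Wnt10b averaged 3.76 ± 0.03 in EGFP-positive and 3.33 ± 0.28 in EGFP-negative cells (SD, n = 3 each; adjusted p = 0.068), and Wnt16 averaged 2.70 in EGFP-positive and 2.28 in EGFP-negative cells (adjusted p = 0.058). Wnt3a, Wnt5a and Wnt5b, widely studied ligands of the canonical and the non-canonical branch, averaged 3.53, 1.82 and 3.59 in EGFP-positive cells, and 3.34, 1.89 and 3.54 in EGFP-negative cells.

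Porcn encodes the membrane-bound acyltransferase that lipidates Wnt ligands in the endoplasmic reticulum. It read 6.39, 6.39 and 6.54 on EGFP-positive arrays, against 5.12, 5.18 and 5.31 on EGFP-negative arrays. The groups were far apart relative to their spread, a 2.35-fold rise (difference 1.23, SE 0.09, adjusted p = 0.00022). Porcn has a single probe set on the array. The carrier gene Wls, from the list of other pathway genes, averaged 8.78 ± 0.20 in EGFP-positive cells and 7.76 ± 0.05 in EGFP-negative cells (SD, n = 3 each), a difference of 1.02 (adjusted p = 0.0012). Both genes of ligand maturation and release were thus higher in EGFP-positive cells.

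Of the 10 Frizzled genes, 2 rose, 2 fell and 6 did not pass, beside 16.0% higher and 17.2% lower among all genes. Fzd4, the receptor for norrin and Wnt ligands known for its role in retinal vessels, read 8.22, 8.23 and 8.28 on EGFP-positive arrays, against 6.26, 6.12 and 5.92 on EGFP-negative arrays. It rose 4.42-fold (difference 2.14, SE 0.11, adjusted p = 5.5e-05), more than any other of the 52 genes. Fzd5, a receptor known for its part in intestinal Paneth cells, read 7.44, 7.21 and 7.45 on EGFP-positive arrays, against 5.69, 5.96 and 6.21 on EGFP-negative arrays. It rose 2.66-fold (difference 1.41, SE 0.15, adjusted p = 0.00090), and the groups did not overlap.

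Fzd1, a relative of Fzd2 and Fzd7 within the family, moved the other way. It read 4.42, 4.38 and 4.84 on EGFP-positive arrays, against 5.78, 5.50 and 6.04 on EGFP-negative arrays, and the groups did not overlap. It was 2.34-fold lower (difference -1.22, SE 0.19, adjusted p = 0.0035) and stayed above the ceiling in both groups. Fzd6, a receptor that orients hair follicles in mouse skin, averaged 7.71 ± 0.15 in EGFP-positive cells and 8.05 ± 0.06 in EGFP-negative cells (SD, n = 3 each). It fell by 0.33 (SE 0.10, adjusted p = 0.048), a call lost when any 1 array other than EGFP-positive replicate 2 was left out. Averaging its probe sets gave Fzd6 a difference of 0.011 and taking the most variable one gave 0.45, neither of which passed. That most variable probe set read under the ceiling on every array and also entered the average. The remaining probe set of Fzd6 exceeded the ceiling on every array and gave -0.08, which did not pass.

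Fzd7, a receptor of stem cells in the intestine, had the highest mean reading of the family's probe sets, which bind with different strength and so do not rank the genes. It read 9.64, 9.58 and 9.53 on EGFP-positive arrays, against 9.35, 9.45 and 9.45 on EGFP-negative arrays. Every EGFP-positive array was above every EGFP-negative one, but the difference of 0.17 (SE 0.08) did not pass (adjusted p = 0.17). Fzd3, a receptor of axon guidance, and Fzd9 averaged 4.54 and 4.11 in EGFP-positive cells and 4.60 and 3.96 in EGFP-negative cells, and neither passed. Fzd2 averaged 3.76 in EGFP-positive and 3.53 in EGFP-negative cells (adjusted p = 0.26), while Fzd8 and Fzd10 stayed under the ceiling on every array.

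**Figure D3:**
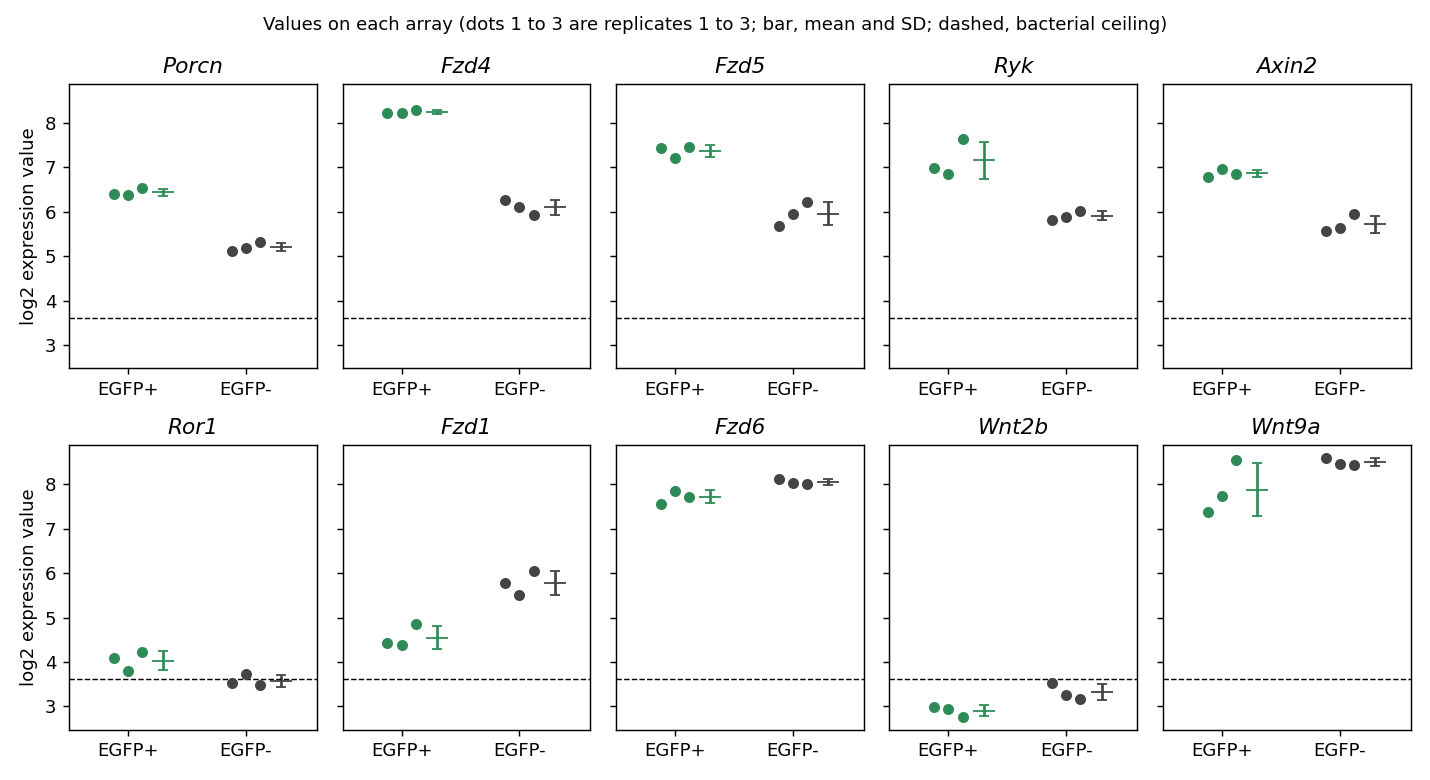
Log2 expression value on each array (vertical axis) for the 9 genes that passed and for Wnt9a, with EGFP-positive arrays on the left and EGFP-negative arrays on the right of each panel. Bars give the mean and SD of 3 arrays and the dashed line the bacterial ceiling of 3.61. The groups are apart by more than their spread for Porcn, Fzd4, Fzd5, Ryk, Axin2 and Fzd1, and EGFP-positive replicate 3 stands apart for Ryk and Wnt9a.

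The sequences upstream of Fzd4 and Fzd5, which rose, and of Fzd1, which fell, are shown because these receptors moved in opposite directions. Each is the 250 bases before the RefSeq start in GRCm38.p6, 5′ to 3′ on the gene's strand, with CpG dinucleotides in capitals. Fzd4 lies at chr7:89404116-89404365 (+ strand), Fzd5 at chr1:64737751-64738000 (- strand) and Fzd1 at chr5:4758217-4758466 (- strand).
Fzd4: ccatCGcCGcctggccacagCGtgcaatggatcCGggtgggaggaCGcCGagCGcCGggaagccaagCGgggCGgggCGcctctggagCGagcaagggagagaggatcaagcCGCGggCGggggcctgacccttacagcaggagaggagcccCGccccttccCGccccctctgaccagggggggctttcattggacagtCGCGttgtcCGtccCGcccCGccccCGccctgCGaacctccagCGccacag
Fzd5: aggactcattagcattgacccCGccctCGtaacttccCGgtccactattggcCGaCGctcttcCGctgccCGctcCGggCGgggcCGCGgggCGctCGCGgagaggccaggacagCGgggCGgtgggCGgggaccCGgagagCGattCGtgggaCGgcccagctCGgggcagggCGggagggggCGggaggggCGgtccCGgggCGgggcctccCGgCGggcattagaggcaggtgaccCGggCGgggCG
Fzd1: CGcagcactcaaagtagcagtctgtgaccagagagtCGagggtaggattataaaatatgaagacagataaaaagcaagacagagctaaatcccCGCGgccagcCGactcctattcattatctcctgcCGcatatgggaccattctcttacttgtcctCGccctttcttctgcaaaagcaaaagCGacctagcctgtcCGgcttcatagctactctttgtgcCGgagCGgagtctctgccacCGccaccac
The windows hold 25 CpG dinucleotides for Fzd4, 32 for Fzd5 and 12 for Fzd1, against a median of 6 over 32851 RefSeq promoters and 22 over the 41 promoters found for 37 of the 52 genes. Their GC content was 72.8%, 76.4% and 51.2%.

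Of the 41 starts, 18 are not the outermost annotated start of their gene, that of Axin2 among them. Both strands of the promoters (250 bases before to 50 after the start) were searched for ATCAAAG, the letters of a TCF and LEF site, and GATAAG, the core of the GATA-like motif that the first zinc finger domain of EVI1 is known to bind. The letters ATCAAAG occurred in 2 of 41 promoters of the 52 genes (4.88%), those of Wnt11 and Wnt5b, and in 3.73% of all promoters. The letters GATAAG occurred in 0 of 41, beside 7.44% of all promoters. The 7 promoters of genes that passed held neither, which says only that these letters are not in this window. The shares above were not matched for base composition. In the 250 bases upstream, the 41 promoters held a median of 22 CpG dinucleotides, against 6 over all promoters.

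Of the 5 co-receptor and alternative receptor genes, 2 rose and 3 did not pass, beside 16.0% of all genes higher. Ryk, a receptor with an inactive kinase domain that binds Wnt ligands, read 6.98, 6.85 and 7.64 on EGFP-positive arrays, against 5.82, 5.89 and 6.02 on EGFP-negative arrays. EGFP-positive replicate 3 was the highest and the groups did not overlap, a 2.37-fold rise (difference 1.24, SE 0.21, adjusted p = 0.0057). Ror1, a receptor tyrosine kinase-like protein bound by WNT5A, read 4.09, 3.79 and 4.22 on EGFP-positive arrays, against 3.53, 3.72 and 3.47 on EGFP-negative arrays. It was at least 1.31-fold higher with EGFP-negative readings set to the ceiling (difference 0.46, SE 0.14, adjusted p = 0.045), and its call was lost when any 1 array other than EGFP-positive replicate 2 was left out. Its relative Ror2 was under the ceiling on every array.

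The co-receptor genes of the canonical branch did not pass. Lrp6 read 10.59, 10.46 and 10.74 on EGFP-positive arrays, against 10.41, 10.39 and 10.44 on EGFP-negative arrays, a difference of 0.18 (SE 0.10, adjusted p = 0.21) between groups that did not overlap. Lrp5 averaged 5.06 ± 0.19 in EGFP-positive cells and 5.38 ± 0.10 in EGFP-negative cells (SD, n = 3 each), with a difference of -0.32 (adjusted p = 0.093). Without EGFP-positive replicate 1 the difference for Lrp5 was -0.42 and passed (adjusted p = 0.041).

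The 5 secreted inhibitor genes of the main set, Dkk1, Dkk2, Dkk3, Sfrp1 and Sfrp2, gave almost no signal. DKK proteins block LRP5 and LRP6, and SFRP proteins bind Wnt ligands outside the cell. The 5 genes read 1.80 to 3.85 on every array, and 0 of 5 exceeded the ceiling on all arrays of a group or passed the limma test, also at an unadjusted p under 0.05. Sfrp1 read 3.85, 3.18 and 3.40 on EGFP-positive arrays, against 3.50, 3.09 and 3.55 on EGFP-negative arrays, so a single reading of 6 lay above background. Dkk4, Sfrp4, Sfrp5, Frzb and Wif1, from the list of other pathway genes, are named after their values were seen. Dkk4 was called higher (difference 0.63, adjusted p = 0.040, limma), above the ceiling on 3 EGFP-positive arrays and 1 EGFP-negative array. Its call was lost in 6 of 14 alternative settings. Sfrp5 exceeded the ceiling on all 3 arrays of both groups and did not pass. Sfrp4 exceeded it on 1 EGFP-negative array, and Frzb and Wif1 on no array.

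Dishevelled genes carry the signal from the receptors into the cell, and 0 of 3 passed the limma test, with 1, Dvl1, at an unadjusted p under 0.05. Dvl1 read 11.03, 10.81 and 10.47 on EGFP-positive arrays, against 10.45, 10.23 and 10.02 on EGFP-negative arrays. The groups nearly touched, and the difference of 0.53 (SE 0.18) gave an adjusted p of 0.062. It passed under 4 of the 14 alternative settings, among them the replicate block (adjusted p = 0.021) and the fit without EGFP-positive replicate 3 (adjusted p = 0.028). Dvl2 averaged 8.52 ± 0.44 in EGFP-positive and 8.05 ± 0.05 in EGFP-negative cells (adjusted p = 0.16), with EGFP-positive replicate 3 at 9.02, and Dvl3 averaged 5.08 in EGFP-positive and 4.99 in EGFP-negative cells (adjusted p = 0.65). Nkd1, a Dishevelled antagonist, read 4.89, 4.53 and 4.75 on EGFP-positive arrays, against 4.72, 4.75 and 4.58 on EGFP-negative arrays (difference 0.04), and the difference for Nkd2 was 0.03.

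In the destruction complex, 1 of 5 genes passed. Axin2, a scaffold of the complex whose gene is a widely used target of beta-catenin and acts as negative feedback, read 6.78, 6.95 and 6.86 on EGFP-positive arrays, against 5.56, 5.64 and 5.94 on EGFP-negative arrays. It rose 2.22-fold (difference 1.15, SE 0.12, adjusted p = 0.00084), and the groups were well apart. Axin1, its constitutive relative, averaged 7.76 ± 0.15 in EGFP-positive cells and 7.93 ± 0.09 in EGFP-negative cells (SD, n = 3 each), and the difference of -0.17 did not pass (adjusted p = 0.27).

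The kinase and scaffold genes of the complex did not pass at the probe set that stands for them. Gsk3b read 12.52, 12.51 and 12.52 on EGFP-positive arrays, against 12.54, 12.64 and 12.62 on EGFP-negative arrays, a difference of -0.08 (SE 0.08, adjusted p = 0.47). Gsk3a averaged 8.84 ± 0.07 in EGFP-positive and 8.56 ± 0.15 in EGFP-negative cells (difference 0.28, adjusted p = 0.089). Apc averaged 7.63 ± 0.33 in EGFP-positive and 7.74 ± 0.17 in EGFP-negative cells (difference -0.11, adjusted p = 0.70). Tcf7l2, a TCF factor at the end of the pathway, read 10.28, 10.09 and 10.22 on EGFP-positive arrays, against 10.39, 10.41 and 10.45 on EGFP-negative arrays. All EGFP-positive arrays were lower, but the difference of -0.22 (SE 0.09) did not pass (adjusted p = 0.10). Tcf7l1, which mostly represses, averaged 4.24 in EGFP-positive and 4.13 in EGFP-negative cells (adjusted p = 0.81).

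Several probe sets were available for 35 of the genes, which gave 115 in all and 63 beyond those used above. Adjusted over 45037 probe sets, of which 24.1% passed, 12 of the 115 passed, 6 of them among the 52 used and 6 among the others. The probe sets of Ror1, Fzd6 and Wnt2b used above did not pass with that adjustment. For Fzd4 a further probe set gave a difference of 1.64 (adjusted p = 0.0023), with means of 6.49 in EGFP-positive and 4.84 in EGFP-negative cells. For Ryk a further one gave 1.04 (adjusted p = 0.017). The remaining probe set of each gene read under the ceiling on every array and did not pass, at 0.32 for Fzd4 and 0.06 for Ryk. A further Ror1 probe set was called higher with means of 2.87 in EGFP-positive and 2.03 in EGFP-negative cells, both under the ceiling. For Gsk3b, 2 of its further probe sets were called in opposite directions, at 0.47 and -0.50, and 1 of Apc was called lower at -0.51, so these genes' probe sets disagree.

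Further probe sets of Fzd5, Axin2 and Fzd1 read under the ceiling in both groups and showed differences of -0.08, -0.11 and -0.24. The calls for these 3 genes therefore rest on 1 probe set each. When all probe sets of each gene were averaged, the differences were 1.37 for Fzd4, 0.67 for Fzd5, 0.78 for Ryk, 0.52 for Axin2 and -0.73 for Fzd1, all smaller by over 1.5 times and all still past the threshold, with adjusted p up to 0.013.

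**Figure D4:**
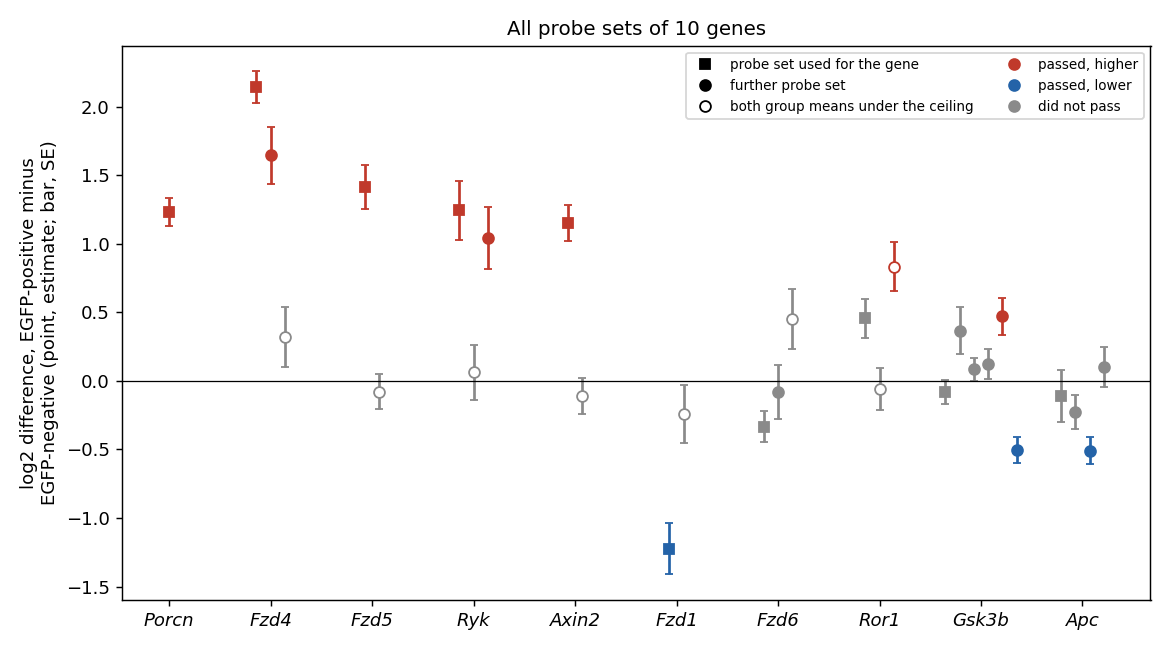
Log2 difference (vertical axis, EGFP-positive minus EGFP-negative; bar, SE) at every probe set of 10 genes, from the fit over all 45037 probe sets. Squares mark the probe set used for the gene, circles the further ones, and open symbols those with both group means under the bacterial ceiling. Fzd4 and Ryk have a pair of probe sets each that rose, and Gsk3b has 1 higher and 1 lower.

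Summed marker levels of other cell types that could carry Frizzled transcripts (endothelium, stroma and bone, T and B cells) differed between the groups. Among these lists only the endothelial genes moved mostly in 1 direction. Outside them, all 6 measured mature myeloid genes fell, as given above. Of 8 endothelial markers 6 rose and 1, Pecam1, fell, and their summed level on the log2 scale was 11.12 to 11.43 on EGFP-positive arrays, against 10.67 to 10.78 on EGFP-negative arrays. The rise with the smallest p was that of Tie1, an endothelial receptor tyrosine kinase gene, which averaged 8.91 in EGFP-positive and 6.76 in EGFP-negative cells (adjusted p = 6.4e-05). Plvap, a gene of endothelial diaphragms, averaged 7.21 in EGFP-positive and 3.25 in EGFP-negative cells (adjusted p = 0.00015). Vwf, which is also a platelet gene, averaged 9.41 in EGFP-positive and 8.22 in EGFP-negative cells (adjusted p = 0.013). The junction gene Cdh5, which defines endothelium, was called higher (adjusted p = 0.013), with means of 3.99 in EGFP-positive and 2.81 in EGFP-negative cells. Emcn lay under the ceiling in both, at 2.19 in EGFP-positive and 1.75 in EGFP-negative cells. Of 8 measured markers of stroma and bone, 2 rose and 1 fell, and 3 exceeded the ceiling on no array. Their summed level was 8.17 to 8.34 on EGFP-positive arrays, against 8.78 to 8.91 on EGFP-negative arrays. The brightest of them, Pdgfrb, fell, averaging 7.27 in EGFP-positive and 8.58 in EGFP-negative cells, while Col1a1 rose, averaging 6.41 and 4.41. Of 8 measured T and B cell markers 1 rose and 2 fell, with summed levels of 8.42 to 8.50 on EGFP-positive arrays, against 8.02 to 8.26 on EGFP-negative arrays. The brightest of them, Cd79b, rose, averaging 8.02 in EGFP-positive and 7.21 in EGFP-negative cells, while Cd3e fell, averaging 3.89 and 5.91. The part of these markers in the Wnt gene differences was not tested.

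Of 44 measured genes from a list of other pathway components, 11 rose and 5 fell, beside 16.0% higher and 17.2% lower among all genes. The other 28 did not pass, and the median difference of the list was 0.07. Besides Wls, the rises with the smallest p were those of Bcl9l, which links beta-catenin to Pygopus proteins, and Frat1, which binds GSK3. Bcl9l averaged 9.28 ± 0.04 in EGFP-positive and 7.95 ± 0.04 in EGFP-negative cells (difference 1.33, adjusted p = 9.0e-05), and Frat1 averaged 8.50 ± 0.08 in EGFP-positive and 7.67 ± 0.01 in EGFP-negative cells (difference 0.84, adjusted p = 0.00054). The falls with the smallest p were Cby1, a beta-catenin antagonist (-0.61, adjusted p = 0.010), Tle3, a Groucho corepressor (-0.36, adjusted p = 0.010), and Lef1. Lef1, a TCF family factor of lymphoid cells, averaged 5.19 ± 0.86 in EGFP-positive and 7.01 ± 0.19 in EGFP-negative cells (difference -1.82, adjusted p = 0.017). Its call was lost without EGFP-negative replicate 2 (adjusted p = 0.057) or replicate 3 (0.064), and averaging its probe sets gave a difference of -0.90. Ctnnbip1, also a beta-catenin antagonist, and Ctnnb1, the beta-catenin gene, are named after their values were seen. Ctnnbip1 moved opposite to Cby1, averaging 8.18 ± 0.38 in EGFP-positive and 6.63 ± 0.42 in EGFP-negative cells (difference 1.55, adjusted p = 0.0061). Ctnnb1 averaged 13.29 ± 0.03 in EGFP-positive and 13.23 ± 0.02 in EGFP-negative cells (difference 0.05, adjusted p = 0.65).

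Of 22 measured genes of planar polarity and other non-canonical branches, 6 rose and 3 fell, beside 16.0% higher and 17.2% lower among all genes. The other 13 did not pass, and the median difference of the list was 0.07. Gpc4, a cell surface glypican that binds Wnt ligands, averaged 9.38 ± 0.19 in EGFP-positive and 5.77 ± 0.16 in EGFP-negative cells (difference 3.60, adjusted p = 3.0e-05). The core polarity genes Celsr1, an atypical cadherin, and Vangl2, its membrane partner in the polarity machinery, rose by 1.73 (adjusted p = 0.00016) and 1.22 (adjusted p = 0.00019). Celsr1 averaged 9.34 in EGFP-positive and 7.62 in EGFP-negative cells, and Vangl2 averaged 8.55 in EGFP-positive and 7.33 in EGFP-negative cells. The falls were Camk2d, a calcium-dependent kinase (-0.92, adjusted p = 0.0016), Nfatc1, a calcium-regulated transcription factor (-0.55, adjusted p = 0.0060), and Celsr3 (-0.66, adjusted p = 0.0063). When probe sets were averaged, the difference of Nfatc1 was -0.16 and did not pass (adjusted p = 0.25), and Camk2d, at -0.60, still did.

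Of 20 measured genes listed as transcriptional targets of beta-catenin, 1 rose and 7 fell, beside 16.0% higher and 17.2% lower among all genes. The other 12 did not pass, and the median difference of the list was -0.12. This list leaves out Axin2, which rose and is one of the 52 genes. Ppard, a nuclear receptor gene, rose by 0.88 (adjusted p = 0.0017), and by 0.42 when its probe sets were averaged. The falls with the smallest p were Myc, a growth regulator, Id2, an inhibitor of helix-loop-helix factors, and Jun, an AP-1 factor. Myc averaged 7.77 ± 0.28 in EGFP-positive and 10.47 ± 0.17 in EGFP-negative cells (difference -2.70, adjusted p = 0.00012). Id2 averaged 8.90 ± 0.30 in EGFP-positive and 11.15 ± 0.03 in EGFP-negative cells (difference -2.25, adjusted p = 0.00017), and Jun averaged 9.36 ± 0.22 in EGFP-positive and 10.55 ± 0.05 in EGFP-negative cells (difference -1.18, adjusted p = 0.00085). The other 4 falls, named after their values were seen, were Lef1 (-1.82, values above), Apcdd1, Znrf3 and Cd44. Apcdd1, an inhibitor of Wnt signalling at the cell surface, averaged 3.01 in EGFP-positive and 4.14 in EGFP-negative cells (difference -1.13, adjusted p = 0.023). It exceeded the ceiling on 0 EGFP-positive and 2 EGFP-negative arrays, and was at least 1.44-fold lower with EGFP-positive readings set to the ceiling. Its call was lost in 6 of 13 alternative settings. Znrf3, a ubiquitin ligase that removes Frizzled receptors, fell by 0.58 (adjusted p = 0.018), with a difference of -0.16 that did not pass when its probe sets were averaged. The adhesion receptor gene Cd44 fell by 0.39 (adjusted p = 0.0087). Lef1 and Znrf3 are also on the list of other pathway components and are counted among the falls of both.

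**Figure D5:**
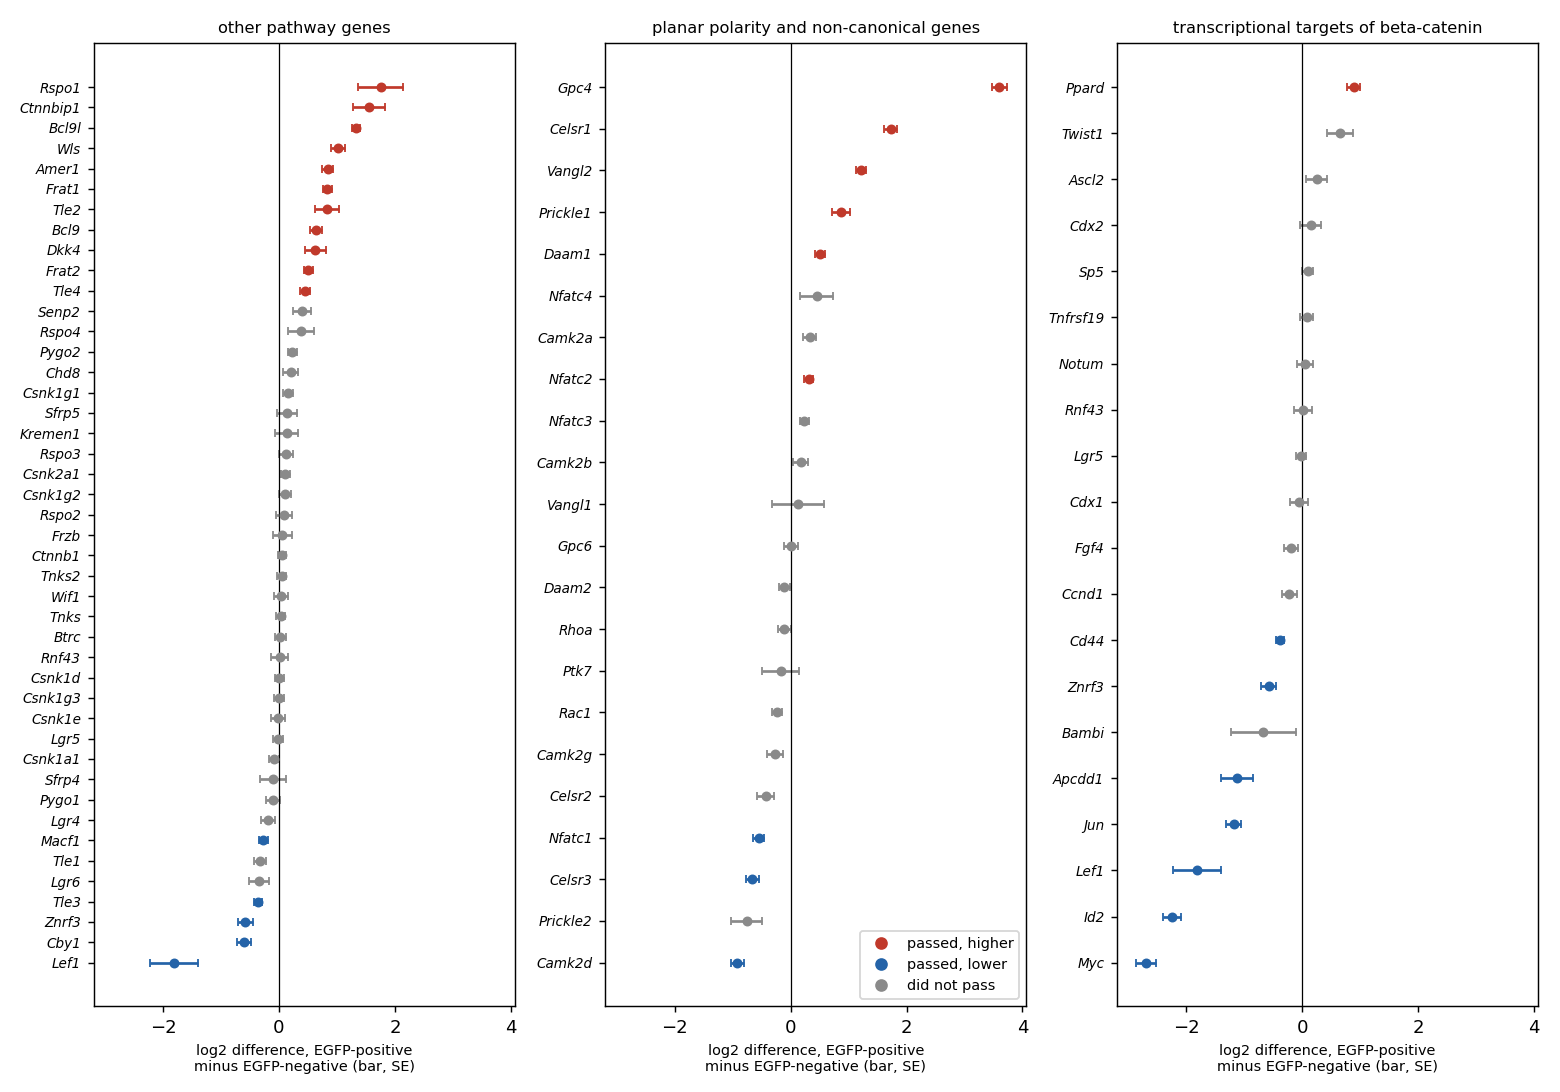
Log2 difference (horizontal axis, EGFP-positive minus EGFP-negative; bar, SE) of the measured genes in 3 further lists, each ordered by its difference. Gpc4 (3.60) and Celsr1 (1.73) lead the polarity list, and Myc (-2.70) and Id2 (-2.25) lie at the lower end of the target list.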

How the data were processed

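The deposited values are log2 expression per probe set on 6 arrays, made by the authors with RMA per the submitters' processing notes, with no version given in the sources used here. Values reach down to 0.75, and the sources do not say whether a variant of RMA that uses probe GC content was applied, which would bear on dim readings and on the ceiling. RMA equalises the distributions of the arrays, so total RNA per cell cannot be read from them. RNA was amplified from the 3' end with a GeneChip kit, per the labels' protocols. Of 45037 non-control probe sets, platform annotation gave 1 gene for 34945, several for 932 and none listed for 9160. Symbols were updated by Entrez identifier through RefSeq (GRCm38.p6), which held 34741 of them. No coordinates belong to the array values.

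The group difference was fitted by limma (version 3.58.1, under R version 4.3.3; lmFit, then eBayes, no covariate, two-sided, Benjamini-Hochberg over 18192 genes), and the code was tested on simulated data. Dim probe sets were kept. Scanner files were not used here. Arrays carry no read depth, and their number, 3 per group, limits the precision.

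Every gene of the 52 that passed is named. Readings on each array are given for those changed by at least 1 and for the one of each role with the highest mean. Of each further list, up to 3 rises and 3 falls with the smallest p are named. The members and lists were chosen with earlier results of these data known. The alternatives comprised a replicate block, other scalings, a filter at the ceiling, eBayes options, array weights, other probe set choices and leaving out each array. Samples with the same number did not deviate together (r across genes -0.01 to 0.01), so the numbers were not taken to pair them.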

Additional observations from a re-analysis of the deposited data

How the results depend on the processing

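Of 14 alternatives, the count of Wnt pathway genes that rose (6) stayed between 5 and 8. The count that fell (3) was 1 to 2 with single arrays left out, being 1 without any of the EGFP-negative arrays, and 2 to 3 otherwise. Porcn, Fzd4, Fzd5, Ryk, Axin2 and Fzd1 passed in all 14. Fzd6 turned in direction, to 0.45 with the most variable probe set and 0.011 with the mean of its probe sets, neither past the threshold. That most variable probe set read under the ceiling on every array and also entered the mean. The median difference of the 52 genes (0.09) was 0.057 to 0.12 with single arrays left out. With the replicate block, Fzd6 (adjusted p = 0.11) and Ror1 (0.11) were lost and Dvl1 was gained, 3 other pathway genes fell instead of 5, and 2 beta-catenin targets rose instead of 1. With single arrays left out, 2 to 4 other pathway genes fell, 3 to 5 polarity genes fell and 1 to 2 targets rose. Polarity genes that fell numbered 5 instead of 3 both with the filter at the ceiling and with eBayes trend and robust options. The causes were not tested. Signal limits the ligands and secreted inhibitors, most of which read at or near the bacterial controls.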
